A study of Homo sapiens with 12 samples.

Results

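The 38 genes described here act in glycolysis or in the cellular response to low oxygen, and they were measured by RNA-seq in HEYA8, a human cell line from ovarian cancer. They were chosen by gene symbol from a written list, and all were found among the 56269 genes of the count table. Of these, 36 passed the filter on low counts and were tested together with the other genes, 16069 in all, while CA9 and EGLN3 did not pass. The study asked how the glycosaminoglycan chains of betaglycan, a co-receptor for TGF-β encoded by TGFBR3, affect its shedding and TGF-β signaling. Cells carried a control vector, ∆GAG-BG with both attachment serines replaced, S534A (CS-BG), whose remaining chain is mainly chondroitin sulfate, or S545A (HS-BG), whose remaining chain is mainly heparan sulfate. Each of these 4 groups had 3 libraries, and the title of the last S545A library reads S545S. All groups were stable lines made with a lentiviral vector that also expresses dTomato, so the cells kept their own TGFBR3 beside the construct. All were harvested at steady state in their regular serum-containing growth medium, without an added ligand or a change of oxygen. No group with unmutated betaglycan was analysed here.

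Glycolysis splits glucose into pyruvate and yields ATP without oxygen, and lactate dehydrogenase and the monocarboxylate transporters let the cell dispose of the product as lactate. Under low oxygen, the prolyl hydroxylases that mark hypoxia-inducible factor (HIF) α subunits for VHL-dependent degradation slow down, and the stabilized factor binds ACGTG-containing response elements near many glycolytic genes and near genes of vessel growth, pH control and mitophagy. Ovarian cancer cells commonly run glycolysis at a high rate even with oxygen present. HIF1A itself is controlled mostly at the protein level, so its RNA does not report the activity of the factor.

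Total counts ran from 16410001 to 29504297 per library, and all levels below are CPM, counts scaled to a common library total after TMM normalization. In such bulk samples, fewer cells of a kind and less RNA per cell cannot be told apart. The labels call the libraries biological replicates. Libraries 2 and 3 of the control vector, ∆GAG-BG and S545A groups were nevertheless nearly alike. The chi-square of their counts divided by its degrees of freedom was 1.43, 1.94 and 1.40, against 16.4 to 74.4 for the other pairs within a group. If such pairs share a culture, p-values measure partly technical spread. TGFBR3, the gene of the construct, was read first. It was at 476, 413 and 456 CPM in S534A libraries 1, 2 and 3 and at 574, 521 and 520 CPM in the S545A libraries. In the libraries labelled ∆GAG-BG it was at 259, 20.3 and 21.4 CPM, and in those labelled control vector at 15.9, 259 and 259 CPM. Libraries 2 and 3 of these 2 groups thus go against their labels, so each value below belongs to the library as labelled, and directions that involve ∆GAG-BG or control vector rest on those labels. Of 10 ovarian carcinoma markers, KRT8, KRT18, KRT7, PAX8 and VIM were each at 193 CPM or more in every library. WT1 was at 3.41 to 8.37 CPM, KRT19 and EPCAM were at most at 1.76 CPM, and CDH1 and MUC16 had 0 counts throughout. Fibroblast markers summed to 8.13 to 17.8 CPM, leukocyte markers to at most 0.227 CPM and erythroid markers to at most 0.0942 CPM. Endothelial markers summed to 171 to 445 CPM, nearly all of it CDH5.

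No member passed an adjusted p of 0.05 in any of the 6 comparisons between groups by edgeR's quasi-likelihood test, and neither did any of the 16069 genes (0% of the genes tested called in each comparison). DESeq2 and limma-voom called 0 members after adjustment, but each called some other genes. Of the 16069 genes, DESeq2 called 5 for S534A against ∆GAG-BG, 1 for S545A against S534A and 2 for S534A against control vector. By limma-voom 1 gene was called in each of these comparisons. Both tools called 0 genes where S534A was not involved. The largest departures came from a single library. S534A replicate 2 held the highest level of the 12 libraries for 29 of the 36 members tested, or 80.6%, against 26.1% of all genes tested. It stood at least 1.5-fold above each of the other 11 libraries for 10 members, or 27.8%, against 2.67% of all genes. The mean of log2(CPM + 1) over the 36 members was 7.29 in that library and 6.49 to 6.67 in the other 11, S534A libraries 1 and 3 included. The library was picked out after its values were seen, so these counts describe it and carry no test.

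**Figure D1:**
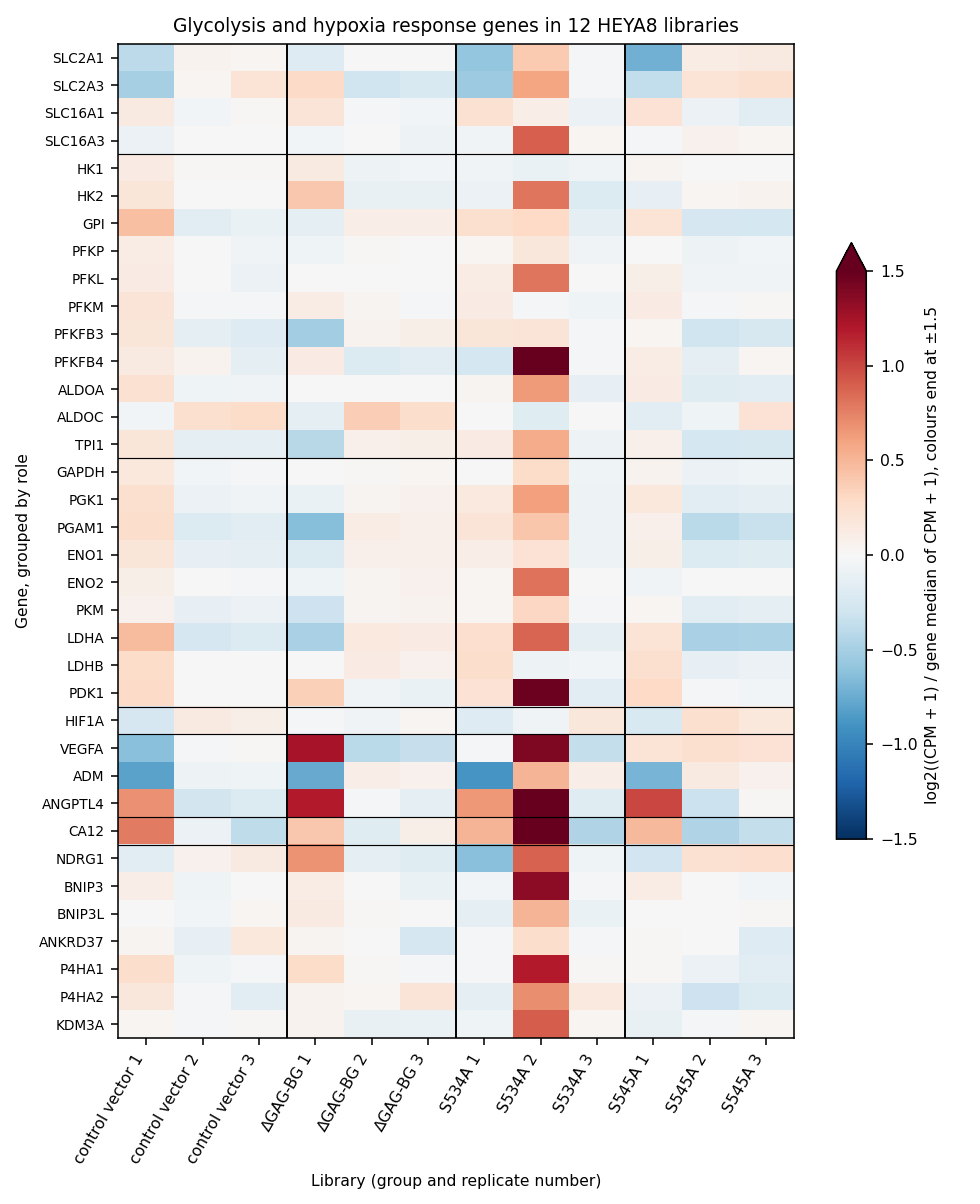
Level of each of the 36 members (rows, grouped by role) in each of the 12 libraries (columns), as the log2 ratio of CPM + 1 to the gene's median over libraries, where red is above and blue below the median. The S534A 2 column is red in most rows, and it is the highest of the 12 for 29 of the 36 genes.

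The same library also differed outside these genes. Its mean log2(CPM + 1) over 10 genes of endoplasmic reticulum stress was 5.52, below the 6.35 to 8.88 of the other libraries, and it had the largest total count. CDH5, a cadherin of endothelial cells, was at 168 CPM there and at 291 to 431 CPM in the other 11 libraries. Its 10 proliferation genes averaged 7.9, within the 7.17 to 8.16 of the rest, but went both ways. Of these, 5 (50%) had their highest level of the 12 libraries there and 3 (30%) their lowest, against 26.1% and 25.4% of all genes. ∆GAG-BG replicate 1 lay at the other end for stress, at 8.88, and lowest for proliferation, at 7.17. Whether these properties play a part in the levels of glycolysis and hypoxia genes was not tested.

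Among the transporters, SLC2A1 (chromosome 1, 42925375 to 42959173, minus strand), the main glucose uptake carrier of most cancer cells and the marker of the list, was at 141, 193 and 190 CPM in control vector libraries 1 to 3. It was at 163, 186 and 185 CPM in the ∆GAG-BG libraries, 124, 244 and 182 CPM in the S534A libraries and 112, 200 and 204 CPM in the S545A libraries. Replicate 1 was the lowest library of its group in all 4 groups, and the groups overlapped throughout. Group means were 175 ± 29.1, 178 ± 13.4, 183 ± 60.2 and 172 ± 51.6 CPM (SD, n = 3 each). The log2 fold change of S534A over ∆GAG-BG was 0.041, with a standard error of 0.26 and a 95% interval of -0.52 to 0.60 (edgeR, unadjusted p = 0.876, adjusted p = 0.980). In the other comparisons the log2 fold change of SLC2A1 lay between -0.090 (S545A against S534A, 95% interval -0.65 to 0.47) and 0.069 (S534A against control vector, -0.49 to 0.63). SLC2A3, the high-affinity neuronal-type glucose carrier, ranged from 29.02 CPM in S534A library 1 to 65.1 CPM in S534A library 2, and ∆GAG-BG library 1 was its second highest at 52.6 CPM.

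The 2 lactate carriers behaved differently from each other. SLC16A3, the monocarboxylate transporter that exports lactate from glycolytic cells, was at 508 CPM in S534A library 2 and at 258 to 285 CPM in the other 11, a spread of 1.11-fold without that library. SLC16A1, the carrier that moves lactate in either direction, was at 137 CPM there, inside the 114 to 150 CPM of the others. Per kilobase of gene length, SLC16A3 made up 68.6% of the pair in that library and 50.8 to 59.1% elsewhere. SLC16A3 overlaps CSNK1D on the opposite strand, a gene with 3302 to 6329 counts per library. Whether counting used strand is not given, so reads of the pair may be shared.

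In the upper steps of glycolysis, 7 of 11 members tested were highest in S534A library 2. HK2, the inducible hexokinase that traps glucose as its phosphate, was at 83.5 CPM there and at 41.1 to 63.2 CPM elsewhere, while HK1, the housekeeping form, had its lowest level there, 213 CPM against 216 to 252.5 CPM. HK1 was at 221 and 220 CPM in S534A libraries 1 and 3. Per kilobase, HK2 was therefore 28.2% of the hexokinase pair in that library and 15.6 to 20.1% in the other 11. Of the phosphofructokinase subunits, which catalyse the committed step, PFKL reached 184 CPM against 99.0 to 115 CPM elsewhere, PFKP 332 CPM against 280 to 318 CPM, and PFKM 125.1 CPM within 122 to 146 CPM. The platelet-type subunit PFKP held the largest share of the 3 in every library, 64.5 to 67.8% per kilobase.

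PFKFB4, a bifunctional enzyme that sets fructose 2,6-bisphosphate, the activator of phosphofructokinase, was at 5.05, 4.71 and 3.95 CPM in the control vector libraries and at 4.98, 3.76 and 3.92 CPM in the ∆GAG-BG libraries. It was at 3.55, 15.6 and 4.36 CPM in the S534A libraries and at 4.92, 3.96 and 4.61 CPM in the S545A libraries. The other 11 libraries lay within 1.42-fold of each other, and S534A library 2 was 3.09-fold above the highest of them. The log2 fold change of S534A over ∆GAG-BG was 0.91, with a standard error of 0.44 and a 95% interval of -0.067 to 1.88 (edgeR, adjusted p = 0.890). UCN2 overlaps PFKFB4 on the same strand, with 5 to 128 counts per library. The related PFKFB3 was at 84.2 CPM in S534A library 2, level with 84.0 CPM in S534A library 1 and 83.7 CPM in control vector library 1, and its lowest value, 51.1 CPM, was in ∆GAG-BG library 1.

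ALDOC, the brain-type aldolase, ran the other way at the limit of detection. It was at 0.207, 0.471 and 0.508 CPM in the control vector libraries, 0.136, 0.603 and 0.496 CPM in the ∆GAG-BG libraries, 0.249, 0.09999 and 0.242 CPM in the S534A libraries and 0.116, 0.196 and 0.444 CPM in the S545A libraries. A floor of 3 counts corresponds to 0.09999 to 0.182 CPM, so several of these values rest on a few reads and their order is not a result. ALDOA, the muscle-type aldolase that carries nearly all of the pair per kilobase, was at 1341 CPM in S534A library 2 and at 759 to 1013 CPM elsewhere. TPI1, triosephosphate isomerase, was at 1220 CPM there and at 617 to 937 CPM elsewhere.

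In the lower steps and at the pyruvate branch, 8 of 9 members were highest in S534A library 2. PDK1, the kinase that inhibits pyruvate dehydrogenase and so keeps pyruvate from the mitochondrial cycle, was at 30.1, 24.6 and 24.4 CPM in the control vector libraries and at 31.8, 23.5 and 22.9 CPM in the ∆GAG-BG libraries. It was at 28.6, 69.5 and 21.8 CPM in the S534A libraries and at 30.4, 24.2 and 23.9 CPM in the S545A libraries. Only S534A library 2 left the range of 21.8 to 31.8 CPM, and the log2 fold change of S534A over ∆GAG-BG was 0.62 with a 95% interval of -0.13 to 1.37 (edgeR, adjusted p = 0.890). ENO2, the neuronal-type enolase, was at 135 CPM in that library against 73.2 to 81.6 CPM in the others, whereas ENO1, the main enolase, was at 3297 CPM against 2465 to 3223 CPM. GAPDH, often used as a reference transcript, was at 4319 CPM against 3350 to 3954 CPM.

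LDHA, the lactate dehydrogenase subunit that favours lactate formation, was at 1519, 914 and 946 CPM in the control vector libraries and 779, 1208 and 1192 CPM in the ∆GAG-BG libraries. It was at 1296, 2003 and 992 CPM in the S534A libraries and 1261, 782 and 783 CPM in the S545A libraries. LDHA differed between libraries of 1 group as much as between groups, and the groups overlapped. LDHB, the subunit that favours pyruvate formation, was at 597 CPM in S534A library 2, within the 578 to 760 CPM of the others. LDHA was thus 61.7% of the pair per kilobase in that library and 37.4 to 49.0% in the other 11, where LDHB was the larger.

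**Figure D2:**
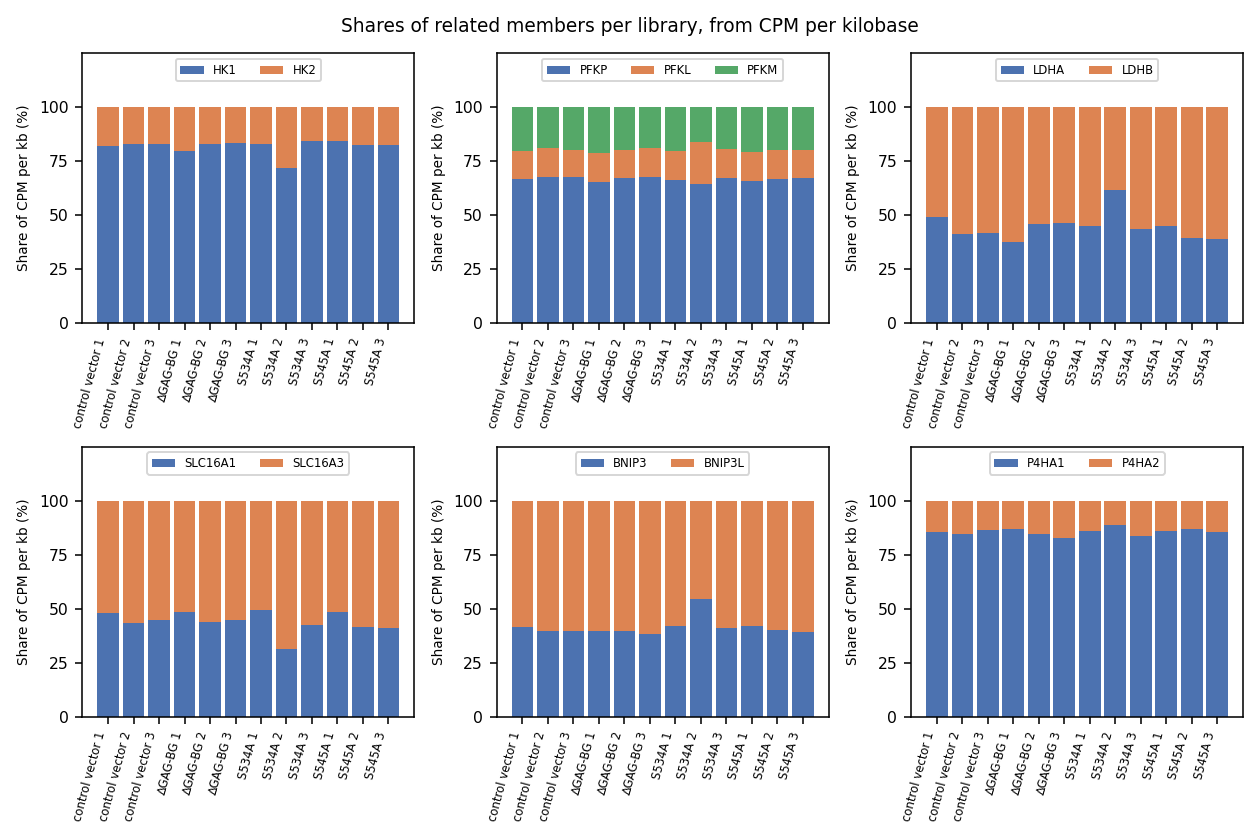
Share of each gene in the sum of CPM per kilobase of its set (vertical axis, %) in each of the 12 libraries (horizontal axis), for hexokinases, phosphofructokinase subunits, lactate dehydrogenase subunits, lactate transporters, BNIP3 and BNIP3L, and prolyl 4-hydroxylase subunits. S534A 2 stands apart with HK2 at 28.2%, LDHA at 61.7%, SLC16A3 at 68.6% and BNIP3 at 54.4% of their sets.

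A second feature of the lower steps was a difference between library 1 and the other libraries of a group, whose direction was not the same in all groups. Of the 9 members, 9 were higher in library 1 than in libraries 2 and 3 of the control vector group and 8 were so in the S545A group, while in the ∆GAG-BG group 8 were lower in library 1. In the S534A group 1 was higher and 0 were lower in library 1 than in both others. Over all genes tested, library 1 was above both others for 40.2% of genes in control vector and 42.3% in S545A, and below both for 43.4% in ∆GAG-BG. In S534A it was above both for 24.2% of all genes and below both for 25.5%. LDHA and PGAM1, a phosphoglycerate mutase, show it by size: PGAM1 was at 282, 204 and 208 CPM in control vector, 248, 177 and 186 CPM in S545A and 150, 254 and 248 CPM in ∆GAG-BG libraries 1 to 3. The labels give the replicate numbers no batch or day. TGFBR3 in these libraries is given above, and no grouping other than the labels was used.

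HIF1A, the oxygen-regulated HIF subunit, had 2943, 2835 and 3301 counts in the control vector libraries, 2641, 2531 and 2741 in ∆GAG-BG, 2991, 3531 and 2253 in S534A and 2668, 2928 and 3979 in S545A. As CPM it ran from 102 to 143, with S534A library 2 at 118, in the middle of the range. Its log2 fold change of S534A over ∆GAG-BG was -0.0018, with a 95% interval of -0.31 to 0.30 (edgeR, adjusted p = 0.998). EGLN3, a HIF prolyl hydroxylase that is itself a HIF target, had 7, 3 and 4 counts in control vector, 2, 4 and 6 in ∆GAG-BG, 4, 26 and 2 in S534A and 3, 3 and 3 in S545A libraries. It did not pass the filter and was not tested, and 26 counts in S534A library 2 was its highest value.

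Among the secreted products of the response, ANGPTL4 had the widest range of all members, 71.6-fold from the lowest to the highest library. ANGPTL4 (chromosome 19, 8363289 to 8374373, plus strand), a secreted inhibitor of lipoprotein lipase, had 75, 18 and 24 counts in the control vector libraries, 90, 26 and 23 in ∆GAG-BG, 71, 1682 and 16 in S534A and 90, 16 and 37 in S545A. In CPM that was 2.59, 0.848 and 0.939, then 4.08, 1.21 and 1.04, then 2.52, 56.1 and 0.970, and then 3.48, 0.783 and 1.26. S534A library 2 was 13.8-fold above the next library, and the other 2 libraries of its own group lay within the range of the other groups. Library 1 was also above libraries 2 and 3 in the control vector, ∆GAG-BG and S545A groups. An antisense gene, RAB11B-AS1, overlaps ANGPTL4 and had 10 to 78 counts.

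VEGFA, the vascular endothelial growth factor, was high in a pair of libraries. It was at 20.1, 31.2 and 32.0 CPM in control vector, 76.0, 23.6 and 24.7 CPM in ∆GAG-BG, 31.2, 85.5 and 24.4 CPM in S534A and 36.7, 37.6 and 37.0 CPM in S545A libraries. ∆GAG-BG library 1 and S534A library 2 were more than 2 times any other. The fold change of S545A over control vector could not be told from 0 (log2 0.42, 95% interval -0.68 to 1.52, edgeR adjusted p = 0.9999). ADM, the vasodilator peptide adrenomedullin, was at 9.23, 15.96 and 16.04 CPM in control vector, 9.56, 18.2 and 17.7 CPM in ∆GAG-BG, 8.70, 24.4 and 18.2 CPM in S534A and 9.99, 18.6 and 17.7 CPM in S545A libraries. Replicate 1 was the lowest of its group in all 4 groups, and the groups overlapped.

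The carbonic anhydrases, which turn over carbon dioxide and bicarbonate at the cell surface, were scarce. CA9, one of the most used markers of hypoxia in tumours, had 0 counts in 10 libraries, 1 count in ∆GAG-BG library 2 and 2 counts in S534A library 2, at or under the 3 counts that a count of 0 allows. CA12 was at 3.77, 1.60 and 1.13 CPM in control vector, 2.67, 1.44 and 1.94 CPM in ∆GAG-BG, 2.95, 7.67 and 1.03 CPM in S534A and 2.87, 1.03 and 1.16 CPM in S545A libraries. Library 1 was above libraries 2 and 3 in 3 groups, and S534A library 2 was 2.04-fold above the next. The log2 fold change of S545A over S534A was -1.23, with a 95% interval of -2.66 to 0.20 (edgeR, adjusted p = 0.702).

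All 7 remaining hypoxia response genes were highest in S534A library 2. BNIP3, a mitochondrial receptor for mitophagy, was at 218 CPM there and at 79.2 to 92.3 CPM in the other 11, which lay within 1.17-fold of each other. Its relative BNIP3L was at 148 CPM against 93.0 to 114 CPM. KDM3A, a histone H3 lysine 9 demethylase, was at 130 CPM against 63.1 to 71.3 CPM. BNIP3 and KDM3A were thus among the steadiest members outside that library.

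NDRG1, a stress-responsive gene induced by HIF, was at 105, 123 and 129 CPM in control vector, 188, 106 and 103 CPM in ∆GAG-BG, 75.7, 218 and 112 CPM in S534A and 95.5, 138 and 139 CPM in S545A libraries. As for VEGFA, the 2 highest values came from S534A library 2 and ∆GAG-BG library 1. P4HA1, the catalytic subunit of the collagen prolyl 4-hydroxylase, was at 42.8, 34.1 and 35.2 CPM in control vector, 43.1, 35.9 and 35.3 CPM in ∆GAG-BG, 35.02, 82.3 and 36.1 CPM in S534A and 36.02, 33.4 and 31.7 CPM in S545A libraries. P4HA2, its second isoform, was at 19.8, 17.1 and 15.4 CPM, 18.1, 17.8 and 20.1 CPM, 15.7, 28.8 and 19.3 CPM, and 16.3, 13.8 and 14.9 CPM in the same order. The log2 fold change of P4HA2 in S545A over ∆GAG-BG was -0.31 (95% interval -0.73 to 0.097, edgeR adjusted p = 0.99999). ANKRD37, an ankyrin repeat protein of unclear role, stayed between 1.08 and 1.97 CPM, or 24 to 59 counts. UFSP2 overlaps it on the opposite strand with 365 to 634 counts per library. With the strand setting not given, this overlap may affect the ANKRD37 counts.

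**Figure D3:**
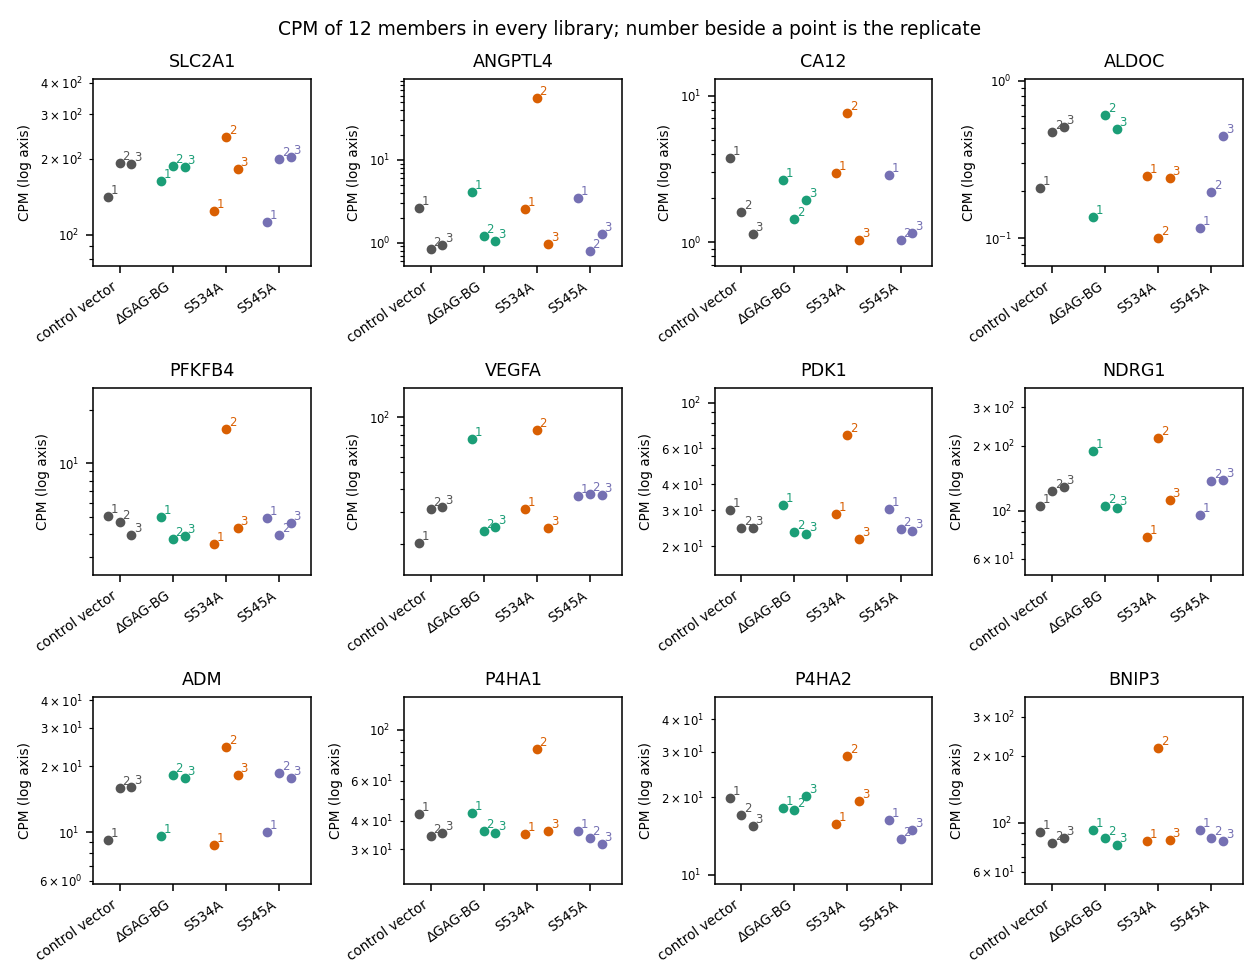
CPM (vertical axis, log scale, one point per library, replicate number beside the point) of 12 members in the 4 groups. S534A replicate 2 is the top point of every panel except that of ALDOC, where it is the bottom point. VEGFA and NDRG1 are also high in ∆GAG-BG 1, and ADM and SLC2A1 are lowest in replicate 1 of each group.

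Whether members that were high in S534A library 2 share the core of the HIF response element was read from RefSeq promoters (GRCh38.p14, 250 bases before to 50 after each gene's start), with ACGTG searched on both strands, so that CACGTG counts on either strand. Of the 33 members with a promoter in the table, 13 (39.4%) held the core, as did 26.8% of the 10225 promoters of genes tested and 21.4% of all 35116 promoters. Among the 10 members at least 1.5-fold above every other library in S534A library 2, 4 held it (ENO2, ANGPTL4, BNIP3 and P4HA1), and among the other 21 members tested with a promoter, 8 did. The stretches upstream of the start are shown for those 4 genes and for LDHA and PGK1. LDHA and PGK1 were picked from the glycolytic genes with more than 1 core that were not 1.5-fold above the next library there. HK2, GAPDH and ALDOC were the others of this kind and are not shown. Capitals mark the core or its reverse complement CACGT, and each stretch is written 5′ to 3′ on the strand of the gene.
ANGPTL4 (chr19:8363905-8363955, plus strand): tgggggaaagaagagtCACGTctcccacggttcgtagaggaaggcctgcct
BNIP3 (chr10:131982022-131982087, minus strand): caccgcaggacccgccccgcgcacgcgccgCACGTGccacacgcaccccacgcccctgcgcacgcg
P4HA1 (chr10:73096918-73096982, minus strand): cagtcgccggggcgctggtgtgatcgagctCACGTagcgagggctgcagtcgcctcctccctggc
ENO2 (chr12:6914432-6914496, plus strand): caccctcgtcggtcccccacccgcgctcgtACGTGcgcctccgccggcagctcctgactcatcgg
LDHA (chr11:18394390-18394524, plus strand): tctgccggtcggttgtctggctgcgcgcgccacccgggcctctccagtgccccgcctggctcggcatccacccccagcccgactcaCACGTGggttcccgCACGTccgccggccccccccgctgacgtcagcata
PGK1 (chrX:78104016-78104099, plus strand): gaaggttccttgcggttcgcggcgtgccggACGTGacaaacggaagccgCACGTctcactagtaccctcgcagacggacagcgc

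BNIP3 and LDHA hold the palindrome CACGTG, and ANGPTL4 has its single core 234 bases before the start. PDK1, PFKFB4, SLC16A3, KDM3A, PFKL and CA12, the other members far above in that library, have no ACGTG in this window. A match describes the letters and not a site of binding, and elements outside the window were not searched.

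Levels between different genes were compared per kilobase of gene length. GAPDH was first in median, at 1193 CPM per kilobase, then ENO1 at 718, TPI1 at 306, PKM at 228, LDHB at 211 and LDHA at 176. Neighbours such as PKM (184 to 282), LDHB (194 to 255) and LDHA (126 to 323) overlapped over the libraries, so that their order is not fixed by these data. The transporters and early regulatory enzymes lay lower, SLC2A1 and HK1 both at 37.7 and HK2 at 7.84, and ANGPTL4, CA12 and ALDOC came last at 0.498, 0.242 and 0.0839. In S534A library 2, ANGPTL4 reached 22.6 per kilobase.

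**Figure D4:**
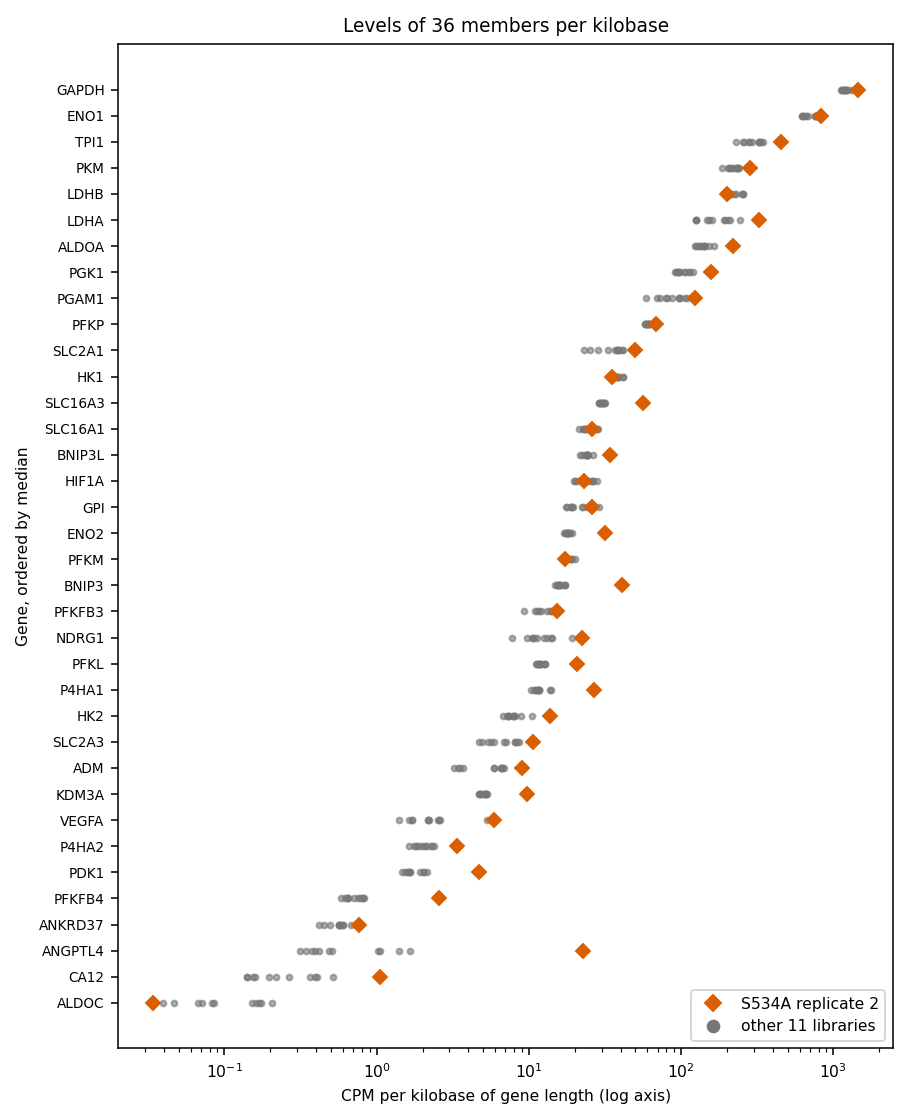
CPM per kilobase (horizontal axis, log scale) of the 36 members, ordered by their median over the 12 libraries, with a point for each library and S534A replicate 2 as a diamond. The levels run from 0.0839 (ALDOC) to 1193 (GAPDH) in median, and the diamond leaves the other 11 points furthest for ANGPTL4.

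The comparison of S534A with ∆GAG-BG asks what the single chain at the other serine adds to betaglycan without chains. Of the 36 members, 31 had a positive and 5 a negative log2 fold change, with a median of 0.19 (-0.0027 over all genes tested). One member, ANGPTL4, was under an unadjusted p of 0.05 (2.78% of members), with 2.99% of all genes called in this way. Its log2 fold change was 3.25, with a standard error of 1.23 and a 95% interval of 0.55 to 5.94 (edgeR, unadjusted p = 0.0224, adjusted p = 0.890). It was higher in 1 of 3 S534A libraries than in every ∆GAG-BG library. Without S534A replicate 2 the value was -0.21 (unadjusted p = 0.799 by edgeR's model of all genes), the median over members was -0.0075, and 17 members were positive and 19 negative. The only member then under 0.05 unadjusted was BNIP3L, lower in S534A, against 1.92% of genes.

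Leaving out S534A replicate 1 or 3 instead, so that replicate 2 weighs more, gave 10 and 13 members under an unadjusted 0.05 in this comparison (5.40% and 10.8% of genes), with ANGPTL4, BNIP3, ENO2, KDM3A, P4HA1, PDK1, PFKFB4, PFKL and SLC16A3 in both. By DESeq2 there were 3, ANGPTL4, BNIP3 and PFKFB4 (8.33% of members, 2.73% of genes), and by limma-voom 0 (3.19% of genes). No member passed an adjusted 0.05 under these settings.

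**Figure D5:**
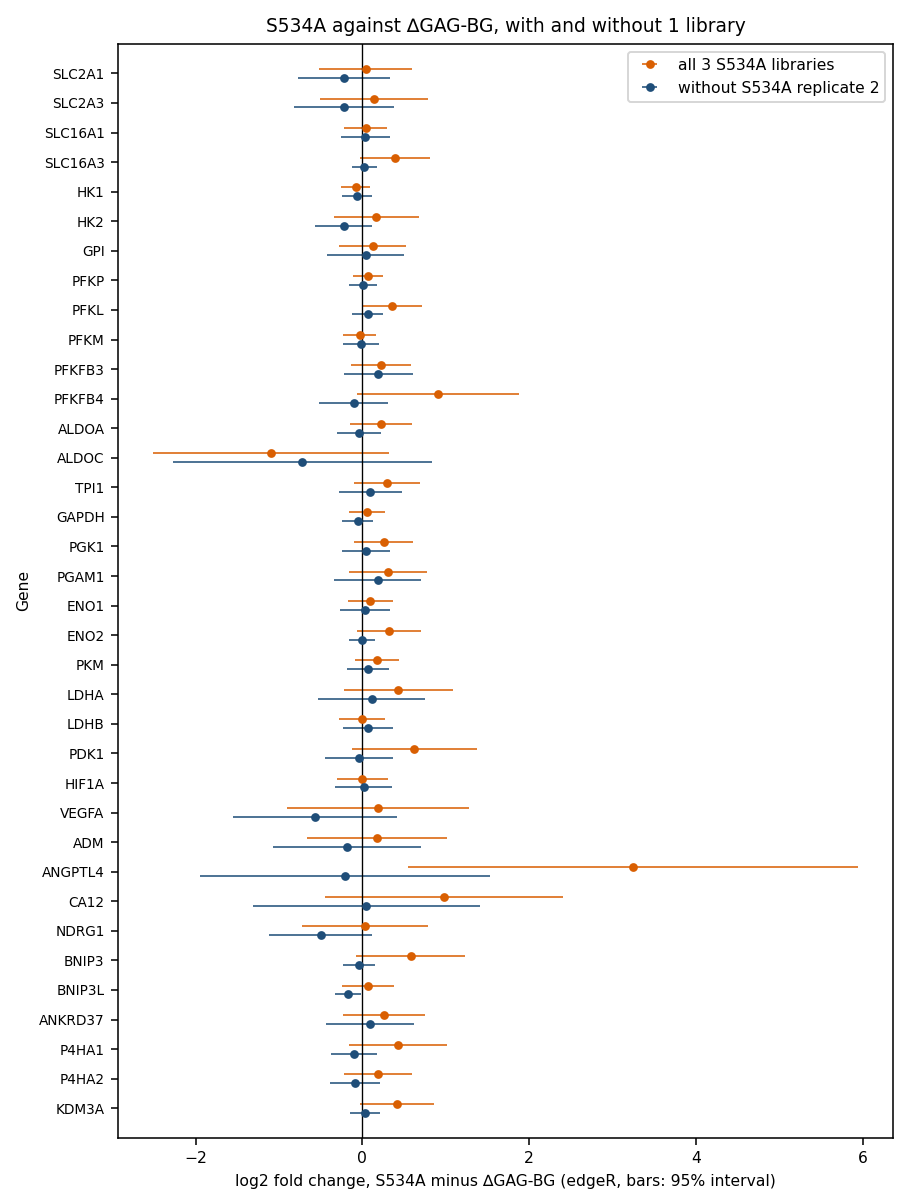
Log2 fold change of S534A minus ∆GAG-BG (horizontal axis) with its 95% interval for each of the 36 members, from all 3 S534A libraries (orange) and without S534A replicate 2 (blue). ANGPTL4 moves from 3.25 to -0.21, and 31 orange but 17 blue points lie above 0.

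S534A against control vector gave a like picture, and the comparisons that involve S534A share its libraries. Here too 31 members were positive and 5 negative, with a median log2 fold change of 0.18 (0.0078 over all genes). ANGPTL4 was the 1 member under an unadjusted 0.05, with 3.45% of all genes called, at a log2 fold change of 3.74 (standard error 1.26, 95% interval 0.98 to 6.51, edgeR unadjusted p = 0.0124, adjusted p = 0.871). Without S534A replicate 2 it was 0.29, no member was under 0.05 unadjusted by edgeR (1.27% of genes), and the median over members was -0.033.

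S545A against S534A compares the 2 constructs with a single chain. Of the members, 4 were positive and 32 negative, with a median log2 fold change of -0.28 (-0.00024 over all genes). An unadjusted p under 0.05 was found for 3 members, or 8.33%, with 4.78% of genes called, all with lower values in S545A. They were ANGPTL4 at -3.42 (95% interval -6.13 to -0.72, edgeR adjusted p = 0.702), P4HA2 at -0.51 (standard error 0.19, -0.92 to -0.098, unadjusted p = 0.0194, adjusted p = 0.702) and P4HA1 at -0.60 (standard error 0.27, -1.20 to -0.012, unadjusted p = 0.0462, adjusted p = 0.702). Without S534A replicate 2 they were 0.030, -0.22 and -0.074, no member was under an unadjusted 0.05 by edgeR (1.76% of genes), and 17 members were positive and 19 negative.

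The comparisons without S534A held less. S545A against ∆GAG-BG had 10 positive and 26 negative members with a median of -0.048, 0 under an unadjusted 0.05 by edgeR, DESeq2 or limma-voom, and 1.10% of genes called. S545A against control vector had 9 positive and 27 negative with a median of -0.044, again 0 by the 3 tools, and 1.05% of genes called. ∆GAG-BG against control vector had 13 positive and 23 negative with a median of -0.014, 0 by the 3 tools, and 0.871% of genes called. The largest change there was that of VEGFA, at 0.58 (95% interval -0.53 to 1.68, edgeR adjusted p = 0.9999), which rests on ∆GAG-BG replicate 1. With the 4 libraries at odds with TGFBR3 left out, 1 library stood on each side, and PFKFB3, PGAM1 and VEGFA were under an unadjusted 0.05 by edgeR in this comparison, the spread being taken from the other groups. That was 8.11% of members, below the 9.07% of all genes under 0.05 in the same fit. The precision differed between members. In S534A against ∆GAG-BG, the 95% interval of the log2 fold change ran from -0.16 to 0.28 for GAPDH and from 0.55 to 5.94 for ANGPTL4, and its half-width had a median over members of 0.42.

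The spread within groups, measured as the SD of log2 values, had a median over members of 0.41 in S534A and of 0.14 to 0.17 in the other groups, against 0.18 for all genes in S534A. The share of a member's variance that lay between groups had a median of 20.5%, against 20.8% over all genes tested, and 12.9% against 18.3% without S534A replicate 2. For 0 of 36 members it passed 50%, as it did for 5.9% of all genes.

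Neighbouring genes of the pathway were read from lists written with the members. Of 11 genes of oxygen sensing, all tested, 0 passed an adjusted 0.05 in any comparison by edgeR. HIF3A, a HIF α subunit lacking a full activation domain, was under 0.05 unadjusted in S534A against control vector (log2 1.26, higher) and in S545A against S534A (-1.31). Of all genes, 3.45% and 4.78% were called there. HIF3A stood at 3.0 CPM in S534A library 2 against 0.424 to 1.45 CPM elsewhere. That library was highest for 2 of the 11, HIF3A and EGLN1, the main HIF prolyl hydroxylase. It was lowest for 5 of them (45.5%), as it was for 25.4% of all genes.

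Of 28 further HIF targets, 27 were tested and 15 (55.6%) were highest in S534A library 2, against 26.1% of all genes. Again 0 were past an adjusted 0.05 by edgeR. MIR210HG, the host transcript of the hypoxia-induced miR-210, was at 17.6 CPM in that library and at 0.727 to 2.49 CPM in the others. AK4, a mitochondrial adenylate kinase, was there 2.1-fold above the 32.8 to 47.8 CPM of the others, and FUT11, a fucosyltransferase, at 23.7 CPM against 8.29 to 12.5 CPM. These 3 were the only genes of the list under an unadjusted 0.05, each in a comparison with S534A, where 2.99% to 4.78% of all genes were called. DDIT4, a stress-induced inhibitor of mTORC1, was instead highest in ∆GAG-BG library 1, at 96.2 CPM. Of the 20 promoters found for this list, 14 held ACGTG.

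Of 31 neighbouring genes of glycolysis and pyruvate use, 23 were tested, with 0 past an adjusted 0.05 by edgeR. In S534A library 2, 9 (39.1%) were highest and 4 (17.4%) lowest, against 26.1% and 25.4% of all genes. PDHA1, a subunit of pyruvate dehydrogenase, the step that PDK1 restrains, was between 59.7 and 72.2 CPM over the 12 libraries. The 2 genes under an unadjusted 0.05 were MPC1, a mitochondrial pyruvate carrier subunit (S534A against ∆GAG-BG, log2 0.36), and ENO3, the muscle-type enolase (S545A against control vector, log2 0.38). Of all genes, 2.99% and 1.05% were called in these comparisons.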

How the data were processed

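RNA-seq of 12 HEYA8 libraries was used. The authors deposited 1 table of raw counts per gene, made from trimmed and aligned reads and not normalized. The submitters' processing notes name Trim Galore 0.4.5, STAR 2.4, SAMtools 1.2, FastQC and featureCounts, and the mouse build mm10, while the table lists human genes. Of its 56269 symbols, 36113 are in GENCODE release 29 and 33647 have identical coordinates there (31 of the 38 members), so coordinates were read as GRCh38. The strand setting is not given in the sources used here. All 37 mitochondrial genes hold 0 counts.

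From these counts, low genes were removed with filterByExpr at a minimum count of 10. The robust quasi-likelihood test of edgeR 4.0.16 (R 4.3.3) used TMM factors and 1 model of 4 groups, with 8 residual degrees of freedom. Adjustment was by Benjamini-Hochberg over 16069 genes. The scripts were tested on simulated data. DESeq2 1.42.0 and limma 3.58.1 (voom) were alternatives, with other scalings, filters, library subsets and a replicate block. The members and lists were chosen with earlier results of these data known. Values in every library were given for SLC2A1, for up to 3 members per comparison with the smallest unadjusted p under 0.05, for the 8 members with the widest range, for HIF1A and for members that failed the filter. Other named genes, such as LDHA, PGAM1, BNIP3, PDHA1, DDIT4 and CDH5, were added after their values were seen. Floors of 3 counts cover counting error only.

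The main model had no replicate block. Deviations from the group mean correlated between S545A and control vector libraries of 1 number (0.732, 0.48 and 0.481). Libraries 2 and 3 were nearly alike in control vector and in S545A (chi-square per degree of freedom 1.43 and 1.40). The correlations therefore cannot tell whether the numbers pair the libraries. A replicate block left the count of members for S545A against control vector at 0.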

Additional observations from a re-analysis of the deposited data

How the results depend on the processing

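The count of members past an adjusted p of 0.05 was 0 in all 6 comparisons under every alternative run. The count under an unadjusted 0.05 was less steady. For S534A against ∆GAG-BG it was 3 by DESeq2, 3 with library size only in place of TMM, 0 by limma-voom, 0 when only the 2 groups were fitted, 0 with libraries 2 and 3 summed, and 4 without the libraries at odds with TGFBR3 (PFKFB3, PGAM1, PKM and TPI1; 10.8% of members and 11.1% of all genes). Of all genes, this comparison had 2.73% under 0.05 by DESeq2, 3.32% with library size only and 3.19% by limma-voom. The share was lower, 1.18%, in the 2-group fit and 1.61% with libraries summed, against 2.99% in the main model. For S534A against control vector the count of members was 2 by DESeq2 (5.56% of members, 3.08% of genes) and 2 without a filter (5.26% and 2.98%). It was 0 by limma-voom and 0 with libraries summed (3.48% and 1.12% of genes). For S545A against S534A it was 6 by DESeq2 (16.7% of members, 4.63% of genes) and 5 without a filter (13.2% and 3.80%). It was 1 by limma-voom (2.78% and 5.75%) and 0 with libraries summed (1.09% of genes). In the 2-group fits 1 member was under an unadjusted 0.05 for S545A against ∆GAG-BG (P4HA2, 2.86% of members, 1.21% of genes). For S545A against control vector it was also 1 (VEGFA, 2.78% of members, 2.61% of genes). In both fits 0 genes passed an adjusted 0.05. Leaving out the libraries at odds with TGFBR3 left 1 library in ∆GAG-BG and 1 in control vector. The median log2 fold change over members was then 0.29 for S534A against ∆GAG-BG and 0.060 for S534A against control vector. It was -0.10 for ∆GAG-BG against control vector and -0.18 for S545A against control vector. The cause of these shifts was not tested.

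Leaving out 1 library at a time moved these counts between 0 and 13 for S534A against ∆GAG-BG, 0 and 11 for S534A against control vector and 0 and 16 for S545A against S534A. The highest counts came without S534A replicate 3, where 10.8%, 11.7% and 15.8% of all genes were under 0.05. For S534A against ∆GAG-BG it was 3 without ∆GAG-BG replicate 1 (3.99% of genes) and 0 without ∆GAG-BG replicate 2 or 3 (3.72% and 3.42%). For S545A against S534A it was 8 without S545A replicate 1 (1945 of 16266 genes) and 0 without S545A replicate 2 (287 of 16594 genes). The same fits put the log2 fold change of ANGPTL4 between -0.205 and 4.163, 0.2876 and 4.479, and -4.253 and 0.03042 in the 3 comparisons, the end nearest to or past 0 being the fit without S534A replicate 2, and between -0.8112 and -0.07388 for P4HA1 and -0.6823 and -0.2157 for P4HA2. SLC2A1, never far from 0, lay between -0.2211 and 0.2581 (S534A against ∆GAG-BG), -0.1967 and 0.2806 (S534A against control vector), -0.3005 and 0.1773 (S545A against S534A), -0.1615 and 0.2117 (S545A against control vector), -0.1895 and 0.1875 (S545A against ∆GAG-BG), and -0.1046 and 0.1044 (∆GAG-BG against control vector). It also changed sign by limma-voom (-0.01106, S534A against ∆GAG-BG) and without the libraries at odds with TGFBR3 (0.078 for S545A against ∆GAG-BG and 0.267 against control vector).

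With the replicate number as a block, the count was 0 for S534A against ∆GAG-BG (3.32% of genes), where SLC2A1 was at -0.01174. It was 1 for S545A against S534A (P4HA2, 2.78% of members and 4.65% of genes). The block changed the count of no other comparison. For S545A against control vector the pairing could not be told from the counts. In each of the other comparisons it was not borne out, since at least 1 correlation was under 0.1.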

Other observations

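Some genes of the neighbouring lists had their lowest level in S534A library 2. PCK2, the mitochondrial phosphoenolpyruvate carboxykinase, was at 138 CPM in ∆GAG-BG library 1 and at 18.7 CPM in S534A library 2, the lowest of the 12. STC2, a secreted glycoprotein listed among the HIF targets, was at 168 CPM in ∆GAG-BG library 1 and at 66.7 CPM in S534A library 2, again the lowest. PLOD2, a collagen lysyl hydroxylase on the same list, ran the other way, at 1.63-fold above the next library in S534A library 2. These genes were picked after their values were seen.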
